A study of Mus musculus with 12 samples.

Results

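The integrated stress response and the unfolded protein response were followed in brown adipose tissue (BAT) through 36 genes, chosen by symbol as known sensors, transcription factors, targets and chaperones of these responses. All 36 were found among the 25124 genes of the deposited expression table. They fall into 5 arms, with 8 stress sensors and transcription factors, 7 targets of ATF4 that serve feedback, redox balance or asparagine synthesis, 6 enzymes of serine and one-carbon metabolism, 10 chaperones and quality control factors of the endoplasmic reticulum (ER), and 5 mitochondrial chaperones and proteases.

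In the unfolded protein response, unfolded protein in the ER lumen is sensed by the kinases PERK and IRE1 and by ATF6, and the ER's chaperones are induced through ATF6 and through XBP1, whose mRNA IRE1 splices. PERK is also one of the kinases that phosphorylate the translation factor eIF2α, the shared step of the integrated stress response, which slows general translation while favouring that of ATF4, an activator of genes for amino acid supply. ATF4 and XBP1 are governed largely by translation and splicing, and brown adipocytes, whose many mitochondria make heat through UCP1, are known to engage ATF4 when those mitochondria fail.

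RNA-seq was performed on interscapular BAT of male mice at 10 weeks of age, all on a C57B/6J background, with 3 libraries per group and 12 in all. WT mice and Txnip-/- mice, which lack the gene for thioredoxin-interacting protein in every tissue, were kept for 1 week at 23 °C, called RT, or at 30 °C, called TN for thermoneutrality. The 4 groups are named here by temperature and genotype. No source states that each library is a mouse of its own, although triplicates are described, so the p-values measure the spread between these libraries.

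The libraries held 29.93 to 47.44 reads in units of 1e6, and the first principal component of 12486 genes took up 61.8% of the variance. Txnip lay between 563.6 to 693.9 TPM in RT WT and 1071.8 to 1237.8 TPM in TN WT, against 24.8 to 35.4 and 10.5 to 14.4 TPM in the Txnip-/- groups. TPM are read counts adjusted to transcript length and to the size of the library, so that levels can be compared between genes. All 10 brown adipocyte markers were present. Markers of other cells moved with the groups. The summed level of 7 macrophage markers was 49.1 to 53.8 TPM in RT WT, 83.0 to 147 TPM in RT Txnip-/-, 112 to 201 TPM in TN WT and 326 to 449 TPM in TN Txnip-/-, while the sum of 6 skeletal muscle markers was 2.32 to 2.84 TPM in RT WT and 17.9 to 43.5 TPM in RT Txnip-/-. At TN the muscle sum was 2.21 to 14.4 TPM in WT and 2.82 to 14.4 TPM in Txnip-/-, and the 5 muscle markers tested were called lower from RT to TN in Txnip-/- mice. Their part in the temperature values of that genotype was not tested. In each RT group 1 library stood apart. The 10 immediate-early genes, a list chosen after the data were seen, summed to 578 TPM in RT WT replicate 1 against 115 and 116 TPM in the others of its group, and to 169 TPM in RT Txnip-/- replicate 1 against 81.9 and 86.4 TPM. In bulk tissue, fewer cells of a type and less RNA per cell cannot be told apart.

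The DNA elements through which these responses are known to act were searched, on both strands, in RefSeq promoters of the GRCm38.p6 assembly, from 250 bases before to 50 bases after each start. The ER stress element, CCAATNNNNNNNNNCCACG, was present in the promoters of 5 of the 36 members, Hspa5, Hsp90b1, Calr, Canx and Pdia6, and in 0.119% of all 32851 promoters. Its second form, ATTGGNCCACG, was found in Herpud1 and in 0.0365% of all promoters. The C/EBP-ATF composite element TGATGNAA, the kind of site that ATF4 and its C/EBP partners bind, lay in the promoters of 6 members, Asns, Atf3, Chac1, Herpud1, Slc7a11 and Trib3, and in 3.97% of all promoters. The element TGACGTGG, named the UPR element, was in none of the 36 member promoters and in 0.676% of all. The reverse of the last element starts with the letters that end the ER stress elements and can overlap them, whereas no 2 elements overlapped in the members. Stretches upstream of the start are shown for the 2 members with a composite element that were called between genotypes, Asns and Atf3, for Slc7a11, which holds the element 2 times, for Herpud1, which holds 2 kinds, and for 4 ER chaperones, so that the spacing of the ER stress element can be compared. Capitals mark the elements, without the spacer of the ER stress element. In the order shown, they are chr6:7693210-7693247 on the minus strand, chr1:191183421-191183458 on the minus strand, chr3:50443638-50443694 on the minus strand, chr8:94386302-94386402 on the plus strand, chr2:34772010-34772058 on the plus strand, chr12:17266476-17266524 on the plus strand, chr11:50325785-50325833 on the minus strand and chr8:84847060-84847108 on the minus strand, and each is written along its own gene's strand.
Asns: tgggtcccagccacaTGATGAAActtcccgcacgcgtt
Atf3: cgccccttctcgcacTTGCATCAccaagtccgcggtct
Slc7a11: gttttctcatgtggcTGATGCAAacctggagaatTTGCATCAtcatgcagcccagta
Herpud1: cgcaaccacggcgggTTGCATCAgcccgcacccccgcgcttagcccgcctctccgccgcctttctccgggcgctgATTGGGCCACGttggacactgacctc
Hspa5: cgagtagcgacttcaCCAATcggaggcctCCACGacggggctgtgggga
Pdia6: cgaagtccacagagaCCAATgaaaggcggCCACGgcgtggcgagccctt
Canx: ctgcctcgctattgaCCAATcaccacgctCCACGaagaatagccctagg
Calr: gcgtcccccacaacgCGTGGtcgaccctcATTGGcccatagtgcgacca

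The members were called about as often as all genes, 8.57% of those tested between genotypes at TN against 8.66%, and 44.1% between temperatures in WT and 41.2% in Txnip-/- mice against 37.8% and 39.2%, although with upper-quartile normalization in WT mice 18 of 34 were called against 31.6% of all genes. At RT no member was called between Txnip-/- and WT mice. At TN, Atf3, a transcription factor of the acute stress response, was higher in Txnip-/- mice. Asns, which makes asparagine, and Phgdh, the entry enzyme of serine synthesis, were lower. The calls of Atf3 and Phgdh were lost in 5 and 8 of 13 alternatives, and that of Asns in 0. From RT to TN, Phgdh, Psat1 and Mthfd2 of serine and one-carbon metabolism and Trib3, a pseudokinase that feeds back on ATF4, rose in both genotypes. So did Eif2ak3 of the stress sensors and Pdia4 and Sdf2l1 of the ER arm, while Sesn2, Atf4 and Dnajb9 fell in both. In Txnip-/- mice the call of Mthfd2 was lost in 9 of 18 alternatives, that of Trib3 in 3 and that of Eif2ak3 in 2. A gene counted as called where its log2 fold change was above 0.32 or below −0.32, the study's thresholds, and its adjusted p was under 0.05 in limma, a linear model with moderated variances, run on log2(TPM + 1) over all genes with a mean of at least 1 TPM in the libraries compared. All log2 fold changes here are on the log2(TPM + 1) scale, which makes those of low genes smaller.

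At RT, 34 members were tested and limma called 0 of them, against 1.49% of the 11980 genes tested. The 178 calls behind that share were 2 to 159 with 1 library left out, lowest without RT WT replicate 2. An unadjusted p under 0.05 was reached by 4 of the 34 and by 16.0% of all genes, and 5 did not overlap between the groups, where 22.6% of all tested genes did not. At TN, 35 members were tested and 3 were called, 1 higher and 2 lower in Txnip-/- mice. Of the 12891 genes tested at TN, 8.66% were called, 6.49% higher and 2.17% lower, and the 1116 calls were 456 to 1005 with 1 library left out, lowest without TN Txnip-/- replicate 1. An unadjusted p under 0.05 at TN was reached by 10 of the 35 members and by 25.6% of all genes. The groups did not overlap for 12 of the 35 members and for 31.1% of all tested genes. In WT mice, 15 of 34 members were called between TN and RT, 10 higher and 5 lower at TN. Over all 12486 genes 37.8% were called, 31.4% higher and 6.39% lower. In Txnip-/- mice, 14 of 34 were called, 8 higher and 6 lower at TN, and over all genes 39.2% were called, 30.9% higher and 8.27% lower. The interaction, which tests whether the effect of Txnip deficiency differed between TN and RT, called 0 of the 34 members with limma. Over all genes it called 0.00801%, which is Txnip alone. That count of 1 was 1 to 6 with 1 library left out, highest without RT WT replicate 1. With both RT libraries of replicate 1 left out it was 12. An unadjusted p under 0.05 for the interaction was reached by 3 members, Atf3, Ddit3 and Trib3, and by 12.6% of all genes.

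The scale of the TN and RT libraries bears on these counts. The median log2 fold change over all genes from RT to TN was 0.18 in WT and 0.15 in Txnip-/- mice, and 83.1% and 78.9% of all calls were higher at TN. With upper-quartile normalization these shares were 55.5% and 56%, and with median centring 51.1% and 48.5%. Set relative to that shift, the fall of Sesn2 became −1.96 in WT and −1.83 in Txnip-/- mice and the rise of Phgdh 1.53 and 1.73. The split of the members called turned as well, from 10 higher and 5 lower to 8 higher and 10 lower in WT mice and from 8 higher and 6 lower to 6 higher and 10 lower in Txnip-/- mice with upper-quartile normalization, and to 8 and 9 and to 6 and 10 with median centring. With upper-quartile normalization Atf5 and Herpud1 lost their calls in WT, and Eif2ak3 and Mthfd2 in Txnip-/- mice. Clpp, Ddit4, Hspa5, Hspd1 and Hspe1 were called lower at TN in WT under the same setting, as were Ddit4, Hspa9, Hspd1 and Psph in Txnip-/- mice. No called member changed sign under any alternative. Markers of other cells were also called higher at TN, 5 of 5 fibroblast markers in both genotypes and 3 of 5 endothelial markers in WT and 5 of 5 in Txnip-/- mice. The fibroblast sum was 174 to 221 TPM in RT WT, 213 to 260 TPM in RT Txnip-/-, 297 to 402 TPM in TN WT and 689 to 699 TPM in TN Txnip-/-, and the endothelial sum 227 to 244, 193 to 231, 278 to 347 and 309 to 345 TPM in the same order. Their part in the members' temperature values was not tested.

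**Figure D1:**
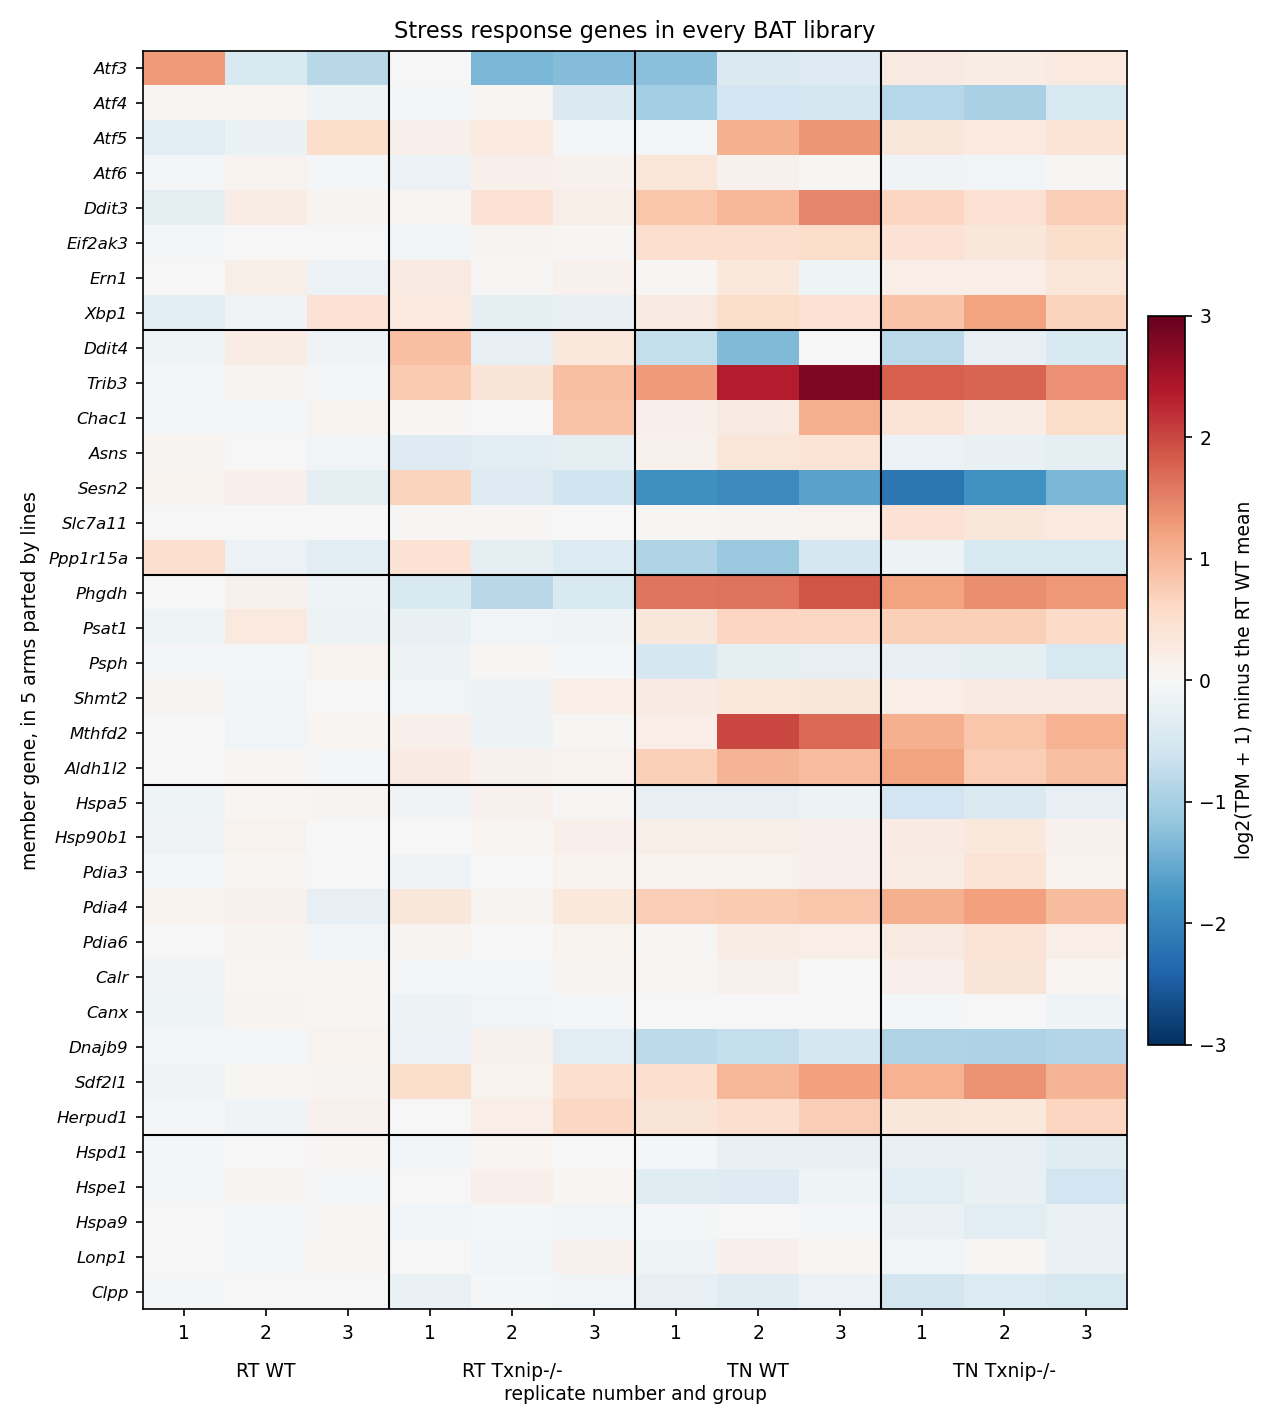
Each cell is the log2(TPM + 1) of 1 member (rows, in 5 arms parted by lines) in 1 library (columns, 3 per group), minus the mean of the 3 RT WT libraries. Trib3, Phgdh and Mthfd2 are red at TN and Sesn2 and Dnajb9 blue, while the rows of the mitochondrial arm stay pale, and TN WT replicate 1 is paler than replicates 2 and 3 in Trib3, Mthfd2 and Atf5.

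The sensors and transcription factors are described first. Their median log2 fold change in Txnip-/- against WT mice was 0.02 at RT, beside 0.03 over all genes, and −0.08 at TN, beside 0.01. Of the 3 ER sensors, Eif2ak3, which encodes PERK, was at 5.81, 6.02 and 5.97 TPM in RT WT, at 5.58, 6.37 and 6.14 TPM in RT Txnip-/-, at 8.83, 8.84 and 9.13 TPM in TN WT and at 8.39, 7.81 and 8.92 TPM in TN Txnip-/-. Its TN libraries lay above every RT library of the same genotype. The rise with temperature was 0.52 (SE 0.07, limma adjusted p = 0.000247) on the log2 scale in WT and 0.42 (SE 0.07, limma adjusted p = 0.000534) in Txnip-/- mice. Ern1, which encodes IRE1, ranged between 2.90 and 4.69 TPM over the 12 libraries and Atf6 between 9.60 and 14.4 TPM, and neither was called in any comparison.

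Xbp1, the transcription factor downstream of IRE1, was at 30.6, 35.6 and 52.1 TPM in RT WT, at 47.3, 31.6 and 32.7 TPM in RT Txnip-/-, at 46.9, 56.5 and 52.8 TPM in TN WT and at 70.1, 90.7 and 61.4 TPM in TN Txnip-/-. Every TN Txnip-/- library was above every library of the other groups. The rise from RT to TN in Txnip-/- mice had a log2 fold change of 0.98 (SE 0.20, limma adjusted p = 0.00198). In WT mice the value was 0.42 (SE 0.20, limma adjusted p = 0.102) and was not called, and the interaction was 0.56 (SE 0.29, limma adjusted p = 0.444). Between genotypes at TN the value was 0.49 (SE 0.14, limma adjusted p = 0.0686), also not called. It was called there with the replicate block and without TN Txnip-/- replicate 3. Plasma cells, which secrete antibody, are known for high XBP1. The summed level of 8 B and plasma cell markers was 1.98 to 3.81 TPM in RT WT, 3.14 to 4.78 TPM in RT Txnip-/-, 6.03 to 8.43 TPM in TN WT and 18.6 to 26.9 TPM in TN Txnip-/-. Jchain, the joining chain of secreted antibodies, was 0.830 to 2.54 TPM in TN WT and 11.7 to 14.3 TPM in TN Txnip-/- mice, and 2 of the 3 markers tested were called higher at TN. The part of these cells in the Xbp1 values was not tested. The deposited TPM do not separate the spliced from the unspliced form of Xbp1.

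Atf4 mRNA was at 119.2, 118.9 and 103.99 TPM in RT WT, at 111.1, 118.9 and 83.8 TPM in RT Txnip-/-, at 55.5, 76.6 and 79.2 TPM in TN WT and at 62.3, 57.9 and 80.9 TPM in TN Txnip-/-. Both genotypes had every TN library below every RT library. The fall from RT to TN had a log2 fold change of −0.70 (SE 0.17, limma adjusted p = 0.00475) in WT and −0.63 (SE 0.17, limma adjusted p = 0.00756) in Txnip-/- mice, while between genotypes the values were −0.14 (SE 0.13, limma adjusted p = 0.668) at RT and −0.07 (SE 0.16, limma adjusted p = 0.846) at TN. Atf5, a related factor known from the mitochondrial unfolded protein response, was at 90.04, 99.3 and 166.4 TPM in RT WT, at 127.9, 140.6 and 111.8 TPM in RT Txnip-/-, at 110.8, 242.2 and 287.01 TPM in TN WT and at 144.3, 139.1 and 152.1 TPM in TN Txnip-/-. TN WT replicate 1 was at less than the level of RT WT replicate 3, so the WT groups overlapped. The call of Atf5 between TN and RT in WT, 0.79 (SE 0.30, limma adjusted p = 0.048), lay close to the threshold. It was lost without RT WT replicate 1 or 2 or TN WT replicate 2 or 3, with log2 fold changes between 0.52 and 0.69 and limma adjusted p between 0.13 and 0.185, and the value was 1.20 without TN WT replicate 1. Leaving out any Txnip-/- library, which leaves the WT difference as it is, gave limma adjusted p between 0.0575 and 0.0614.

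Ddit3, which encodes the pro-apoptotic factor CHOP, was at 26.2, 37.9 and 34.4 TPM in RT WT, at 33.5, 44.4 and 36.9 TPM in RT Txnip-/-, at 58.8, 65.3 and 91.8 TPM in TN WT and at 51.6, 45.02 and 54.6 TPM in TN Txnip-/-. The TN WT libraries lay above all others, including every TN Txnip-/- library. With temperature its log2 fold change was 1.10 (SE 0.17, limma adjusted p = 0.000528) in WT and 0.39 (SE 0.17, limma adjusted p = 0.0748) in Txnip-/- mice. Between genotypes at TN it was −0.48 (SE 0.16, limma adjusted p = 0.0994) and was not called, and the interaction was −0.70 (SE 0.24, limma adjusted p = 0.282), with a 95% interval of −1.24 to −0.17. The temperature value in Txnip-/- mice was called higher at TN with the replicate block and without TN WT replicate 3. Ddit3 shares exon bases with Mars on the opposite strand.

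Atf3, the acute stress factor (NM_007498, mm10 chr1:191170297-191183333 on the minus strand), was at 13.02, 3.16 and 2.25 TPM in RT WT, at 4.79, 1.23 and 1.33 TPM in RT Txnip-/-, at 1.42, 3.23 and 3.37 TPM in TN WT and at 5.93, 5.72 and 6.05 TPM in TN Txnip-/-. The 3 TN Txnip-/- libraries lay close together and above the 3 TN WT libraries. At RT the groups overlapped, and replicate 1 was the highest library of each. At TN the log2 fold change was 0.96 (SE 0.21, limma adjusted p = 0.0308), with a 95% interval of 0.47 to 1.45. Leaving out TN Txnip-/- replicate 1, 2 or 3 left the log2 fold change at 0.96, 0.98 or 0.94 with limma adjusted p of 0.0943, 0.0867 and 0.0682, so that the call was lost with each of them left out in turn. It was also lost at the same log2 fold change without the filter on low values (limma adjusted p = 0.0831) and in 1 fit of all 12 libraries (limma adjusted p = 0.261), whereas the authors' log2-scale values gave 0.53 (limma adjusted p = 0.01). The value at RT was −0.89 (SE 0.59, limma adjusted p = 0.52) and the interaction 1.84 (SE 0.70, limma adjusted p = 0.323). From RT to TN it was −0.69 (SE 0.50, limma adjusted p = 0.261) in WT and 1.15 (SE 0.50, limma adjusted p = 0.0717) in Txnip-/- mice, neither called, and the latter was called without RT WT replicate 1, RT Txnip-/- replicate 1 or both. RT WT replicate 1, highest in Atf3, was also the library highest in immediate-early genes, among them Nr4a1 at 361.9, 11.7 and 5.32 TPM in the 3 RT WT libraries. Macrophage markers, 7 of 7 called higher in TN Txnip-/- than in TN WT, moved with Atf3 at TN, and so did 5 of 5 fibroblast markers. Their part in the Atf3 values was not tested.

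**Figure D2:**
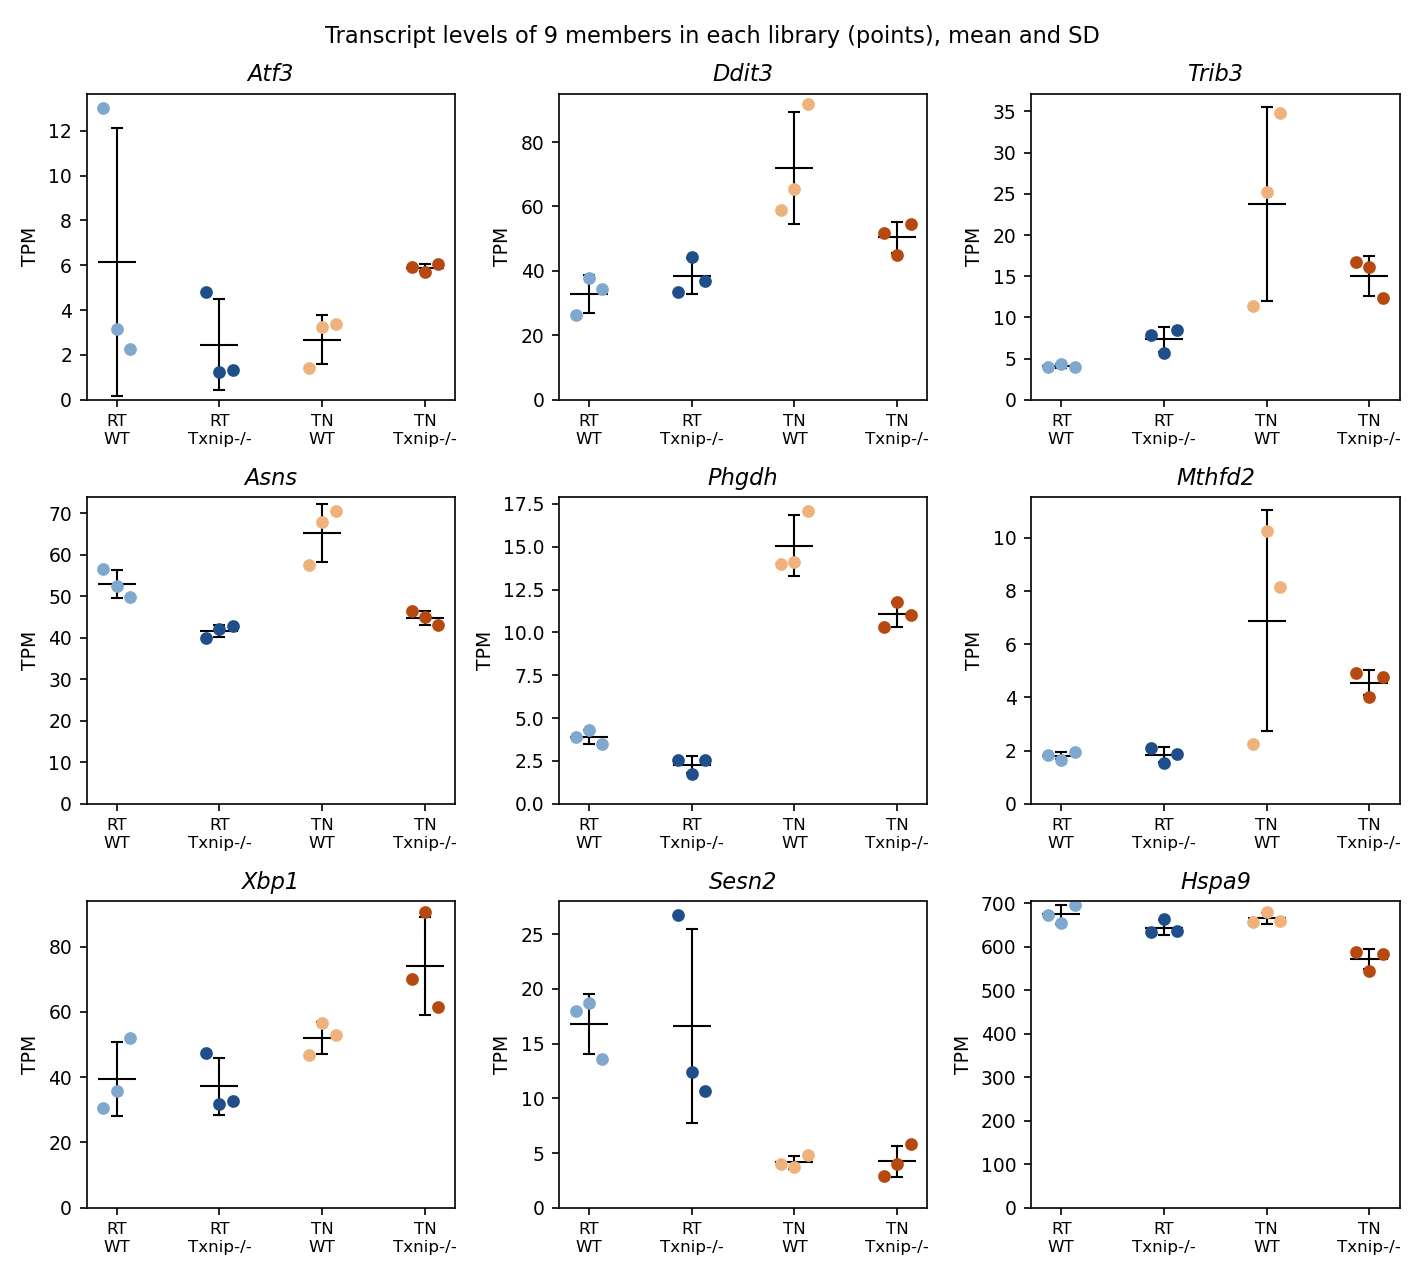
Points are the TPM of 9 members in each of the 12 libraries, 3 per group, with the group mean as a bar and the SD as whiskers, on axes that start at 0. The Asns points of both Txnip-/- groups lie below all WT points, a difference called at TN and not at RT. Phgdh and Trib3 were higher and Sesn2 lower at TN, Ddit3 was called higher at TN in WT mice, and TN WT replicate 1, the leftmost TN WT point, was low in Trib3 and Mthfd2.

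Among the ATF4 targets, Asns, asparagine synthetase, was the member with the smallest adjusted p between genotypes at both temperatures. Asns (NM_012055, mm10 chr6:7675165-7693209 on the minus strand) was at 56.5, 52.6 and 49.8 TPM in RT WT, at 40.02, 42.1 and 42.7 TPM in RT Txnip-/-, at 57.5, 67.96 and 70.5 TPM in TN WT and at 46.5, 44.97 and 43.1 TPM in TN Txnip-/-. Every Txnip-/- library was below every WT library of both temperatures. The log2 fold change in Txnip-/- against WT mice was −0.53 (SE 0.09, limma adjusted p = 0.0122) at TN, with a 95% interval of −0.73 to −0.33, and the call held with each of the 6 libraries left out, the adjusted p reaching 0.0439 at most over all alternatives. At RT it was −0.34 (SE 0.07, limma adjusted p = 0.0618) and was not called. The interaction was −0.19 (SE 0.11, limma adjusted p = 0.504). The composite element of Asns shown above lies 23 to 16 bases before its start.

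Trib3 was at 3.97, 4.38 and 4.02 TPM in RT WT, at 7.81, 5.67 and 8.53 TPM in RT Txnip-/-, at 11.4, 25.2 and 34.9 TPM in TN WT and at 16.8, 16.1 and 12.3 TPM in TN Txnip-/-. All RT Txnip-/- libraries were above the RT WT libraries, while at TN the genotypes overlapped and TN WT replicate 1 was the lowest of its group. The rise from RT to TN was 2.15 (SE 0.30, limma adjusted p = 0.000279) on the log2 scale in WT and 0.95 (SE 0.30, limma adjusted p = 0.0189) in Txnip-/- mice. The second of these calls was lost without RT Txnip-/- replicate 2 (0.80, limma adjusted p = 0.0761), TN Txnip-/- replicate 1 (0.87, limma adjusted p = 0.0626) or TN Txnip-/- replicate 2 (0.90, limma adjusted p = 0.0546). Between genotypes the value was 0.69 (SE 0.14, limma adjusted p = 0.0669) at RT and −0.51 (SE 0.34, limma adjusted p = 0.407) at TN, neither called. The interaction of −1.20 (SE 0.42, limma adjusted p = 0.285) had a 95% interval of −2.11 to −0.28 and was not called.

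Sesn2, a sestrin that restrains mTORC1, was at 17.98, 18.7 and 13.6 TPM in RT WT, at 26.8, 12.4 and 10.7 TPM in RT Txnip-/-, at 3.96, 3.71 and 4.82 TPM in TN WT and at 2.92, 4.005 and 5.78 TPM in TN Txnip-/-. Both genotypes had all TN libraries below all RT libraries. The log2 fold change from RT to TN was −1.78 (SE 0.29, limma adjusted p = 0.000611) in WT and −1.68 (SE 0.29, limma adjusted p = 0.00059) in Txnip-/- mice, the largest fall among the members tested in each genotype. Between genotypes it was −0.11 (SE 0.31, limma adjusted p = 0.906) at RT and −0.01 (SE 0.19, limma adjusted p = 0.982) at TN. Ppp1r15a, which encodes the GADD34 subunit that directs dephosphorylation of eIF2α, was at 17.6, 10.7 and 9.41 TPM in RT WT, at 16.7, 9.97 and 8.88 TPM in RT Txnip-/-, at 5.99, 5.04 and 8.20 TPM in TN WT and at 10.8, 8.57 and 8.47 TPM in TN Txnip-/-. Replicate 1 was the highest library of both RT groups, and every TN Txnip-/- library was above every TN WT library. In WT mice the fall from RT to TN was −0.85 (SE 0.25, limma adjusted p = 0.0154), which was not called without RT WT replicate 1 (−0.59, limma adjusted p = 0.0575) or without TN WT replicate 2 (−0.71, limma adjusted p = 0.0633). Between genotypes at TN the value was 0.49 (SE 0.16, limma adjusted p = 0.102).

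Ddit4, an inhibitor of mTORC1, ranged between 14.2 and 69.2 TPM and Chac1, which degrades glutathione, between 0.843 and 3.06 TPM. Neither was called in the main fit of any comparison. Under alternatives Ddit4 was called as given above, and Chac1 between RT and TN in WT mice with the replicate block. Slc7a11, the cystine transporter, was at 0.015, 0.035 and 0.031 TPM in RT WT, at 0.047, 0.057 and 0.041 TPM in RT Txnip-/-, at 0.057, 0.081 and 0.097 TPM in TN WT and at 0.377, 0.296 and 0.268 TPM in TN Txnip-/-, below the mean of 1 TPM needed for testing in every comparison. All 3 TN Txnip-/- libraries were above all other libraries. Without the filter on low values, its log2 fold change at TN was 0.28 (SE 0.05, limma adjusted p = 0.0338), short of the fold threshold on the log2(TPM + 1) scale. In Txnip-/- mice the unfiltered value from RT to TN, 0.32 (SE 0.03, limma adjusted p = 8.23e-05), passed both thresholds.

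The serine and one-carbon enzymes included Phgdh, which had the largest rise with temperature among the 34 members tested in Txnip-/- mice, on the log2(TPM + 1) scale. Phgdh (NM_016966, mm10 chr3:98313171-98339969 on the minus strand) was at 3.87, 4.31 and 3.50 TPM in RT WT, at 2.58, 1.73 and 2.54 TPM in RT Txnip-/-, at 13.98, 14.1 and 17.1 TPM in TN WT and at 10.3, 11.8 and 11.04 TPM in TN Txnip-/-. The 4 groups did not overlap, with the order TN WT, TN Txnip-/-, RT WT and RT Txnip-/- from high to low. Between RT and TN it rose by 1.71 (SE 0.12, limma adjusted p = 1.27e-05) in WT and 1.88 (SE 0.12, limma adjusted p = 6.29e-06) in Txnip-/- mice. In Txnip-/- against WT mice it was −0.41 (SE 0.09, limma adjusted p = 0.0355) at TN and −0.58 (SE 0.13, limma adjusted p = 0.0935) at RT, the latter not called. The call at TN was lost when any 1 of the 6 libraries was left out, with log2 fold changes between −0.46 and −0.32 and limma adjusted p between 0.0523 and 0.123. It was also lost without the filter on low values (limma adjusted p = 0.0772) and, short of the fold threshold, with the authors' log2-scale values (−0.28). The interaction was 0.17 (SE 0.17, limma adjusted p = 0.697).

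The 2 enzymes that follow Phgdh in serine synthesis went different ways with temperature. Psat1 was at 1.38, 2.21 and 1.36 TPM in RT WT, at 1.254, 1.46 and 1.43 TPM in RT Txnip-/-, at 2.34, 3.12 and 3.02 TPM in TN WT and at 3.33, 3.27 and 2.91 TPM in TN Txnip-/-. The TN libraries were above the RT libraries in both genotypes, with a log2 fold change of 0.54 (SE 0.13, limma adjusted p = 0.00544) in WT and 0.81 (SE 0.13, limma adjusted p = 0.000399) in Txnip-/- mice. Psph, the last enzyme of the pathway, was at 22.3, 22.7 and 25.02 TPM in RT WT, at 20.8, 24.1 and 22.5 TPM in RT Txnip-/-, at 16.02, 19.03 and 19.7 TPM in TN WT and at 19.6, 19.1 and 16.5 TPM in TN Txnip-/-. Every TN library was below every RT library of its genotype. The fall was −0.34 (SE 0.09, limma adjusted p = 0.0102) in WT mice, which lost its call without RT WT replicate 3 (−0.29) or TN WT replicate 1 (−0.26), both then short of the fold threshold. In Txnip-/- mice the value was −0.27 (SE 0.09, limma adjusted p = 0.0279), not called since it did not reach the fold threshold.

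Of the mitochondrial enzymes of the folate cycle, Mthfd2 was at 1.84, 1.66 and 1.93 TPM in RT WT, at 2.11, 1.54 and 1.89 TPM in RT Txnip-/-, at 2.24, 10.3 and 8.13 TPM in TN WT and at 4.91, 4.002 and 4.75 TPM in TN Txnip-/-. TN WT replicate 1 was near the RT level while replicates 2 and 3 were above every other library. The log2 fold change from RT to TN was 1.30 (SE 0.34, limma adjusted p = 0.0082) in WT and 0.97 (SE 0.34, limma adjusted p = 0.0325) in Txnip-/- mice. The call in WT mice held without each library, with values between 0.95 and 1.85, and that in Txnip-/- mice was lost without RT Txnip-/- replicate 2 or 3 or any TN Txnip-/- library, with values between 0.89 and 1.04. Shmt2, which moves one-carbon units from serine, ranged between 10.9 and 15.8 TPM and was not called in the main fit of any comparison. Between RT and TN it was called under some alternatives, such as a pseudocount of 0.1 in WT mice. Aldh1l2, a formyltetrahydrofolate dehydrogenase, was 0.153 to 0.212 TPM in RT WT, 0.265 to 0.387 TPM in RT Txnip-/-, 0.929 to 1.38 TPM in TN WT and 0.967 to 1.72 TPM in TN Txnip-/- mice. It passed the filter at TN alone, where the log2 fold change between genotypes was 0.07 (SE 0.16, limma adjusted p = 0.839). Without the filter, Aldh1l2 was called higher at TN in WT (0.88, limma adjusted p = 0.000594) and in Txnip-/- mice (0.80, limma adjusted p = 0.000486). TN WT replicate 1, low in Mthfd2, Trib3 and Atf5, was also the deepest library.

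**Figure D3:**
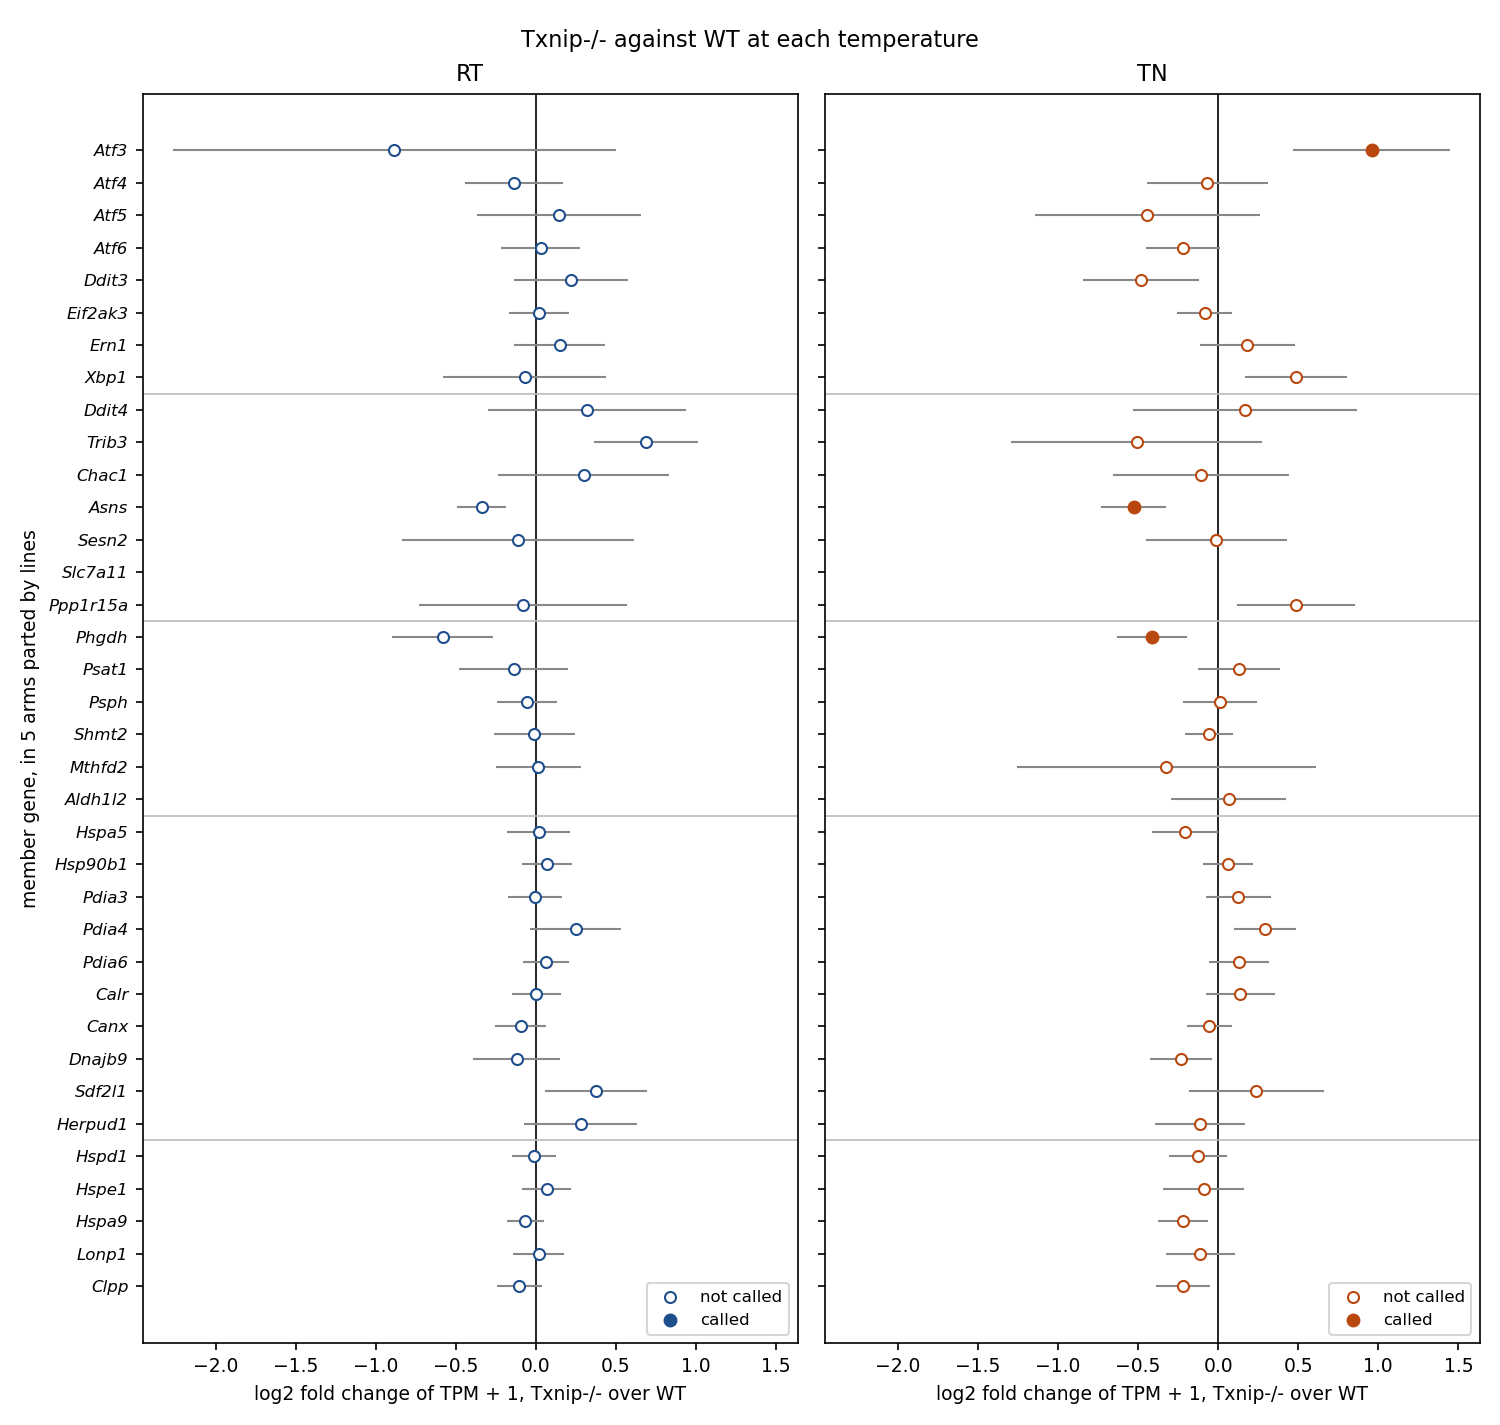
Points are the log2 fold changes of the members in Txnip-/- over WT libraries at RT (left) and TN (right), 3 libraries against 3, with 95% intervals from limma as bars; filled points were called and Slc7a11, and Aldh1l2 at RT, were not tested. No point is filled at RT, and Atf3 (0.96), Asns (−0.53) and Phgdh (−0.41) are filled at TN.

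The ER chaperones and quality control genes had a median log2 fold change in Txnip-/- against WT mice of 0.04 at RT and 0.09 at TN. Of the 10, limma called 0 at either temperature, where 1.49% of all genes were called at RT and 8.66% at TN. An unadjusted p under 0.05 was reached by 1 at RT and 2 at TN, and by 16.0% and 25.6% of all genes. Hspa5, which encodes BiP, the main ER chaperone of the Hsp70 family, was at 209.9, 237.6 and 243.8 TPM in RT WT, at 212.3, 250.8 and 236.8 TPM in RT Txnip-/-, at 194.4, 193.7 and 206.6 TPM in TN WT and at 153.6, 170.2 and 193.2 TPM in TN Txnip-/-. Every TN library was below every RT library of its genotype. Between RT and TN the log2 fold change was −0.44 (SE 0.09, limma adjusted p = 0.00204) in Txnip-/- mice, and −0.21 (SE 0.09, limma adjusted p = 0.0692) in WT mice, not called. Between genotypes at TN it was −0.21 (SE 0.09, limma adjusted p = 0.2). The interaction was −0.22 (SE 0.13, limma adjusted p = 0.495). Dnajb9, a co-chaperone of BiP, was at 44.6, 43.7 and 49.5 TPM in RT WT, at 40.6, 50.2 and 36.7 TPM in RT Txnip-/-, at 26.2, 27.5 and 32.1 TPM in TN WT and at 24.2, 23.7 and 24.3 TPM in TN Txnip-/-. The TN libraries lay below the RT libraries in both genotypes, and the TN Txnip-/- below the TN WT libraries. The fall from RT to TN was −0.67 (SE 0.11, limma adjusted p = 0.000595) in WT and −0.78 (SE 0.11, limma adjusted p = 0.000144) in Txnip-/- mice, and the value between genotypes at TN was −0.23 (SE 0.08, limma adjusted p = 0.128).

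Others of the arm rose with temperature. Pdia4, a disulphide isomerase, was at 20.997, 21.2 and 16.2 TPM in RT WT, at 24.8, 20.5 and 24.4 TPM in RT Txnip-/-, at 33.1, 34.01 and 35.3 TPM in TN WT and at 41.7, 46.6 and 38.1 TPM in TN Txnip-/-. All TN libraries were above all RT libraries, and the TN Txnip-/- libraries were above the TN WT libraries. The rise from RT to TN was 0.79 (SE 0.11, limma adjusted p = 0.000274) in WT and 0.83 (SE 0.11, limma adjusted p = 0.000109) in Txnip-/- mice. Between genotypes it was 0.29 (SE 0.08, limma adjusted p = 0.0669) at TN. Sdf2l1, a partner of ER chaperones, was at 2.67, 3.01 and 3.13 TPM in RT WT, at 4.65, 3.20 and 4.58 TPM in RT Txnip-/-, at 4.55, 6.79 and 8.19 TPM in TN WT and at 7.16, 9.06 and 6.93 TPM in TN Txnip-/-. Its RT Txnip-/- libraries lay above the RT WT libraries, although the difference, 0.37 (SE 0.14, limma adjusted p = 0.237), was not called. Between RT and TN it rose by 0.90 (SE 0.18, limma adjusted p = 0.00173) in WT and 0.77 (SE 0.18, limma adjusted p = 0.00381) in Txnip-/- mice. Herpud1, which acts in the removal of ER proteins for degradation, was at 48.4, 46.3 and 54.2 TPM in RT WT, at 49.9, 57.3 and 76.8 TPM in RT Txnip-/-, at 65.2, 70.6 and 83.3 TPM in TN WT and at 62.6, 61.4 and 78.6 TPM in TN Txnip-/-. The WT groups did not overlap, and the Txnip-/- groups did. From RT to TN its value was 0.54 (SE 0.15, limma adjusted p = 0.0111) in WT, where it was called, and 0.15 (SE 0.15, limma adjusted p = 0.418) in Txnip-/- mice, and the difference between the 2, the interaction, was −0.39 (SE 0.21, limma adjusted p = 0.467).

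The remaining 5 ER members, Hsp90b1, Pdia3, Pdia6, Calr and Canx, were abundant and were not called in any comparison. Hsp90b1, the ER form of Hsp90, ranged between 136.02 and 180.7 TPM over the 12 libraries. Calr ranged between 167.7 and 235.04 TPM, and Canx, like Calr a lectin chaperone of glycoproteins, between 77.03 and 90.8 TPM. Pdia3 ranged between 80.2 and 116.2 TPM and Pdia6 between 79.5 and 111.2 TPM. The 5 members with the ER stress element had log2 fold changes between genotypes at TN of −0.21 for Hspa5, −0.06 for Canx, 0.06 for Hsp90b1, 0.13 for Pdia6 and 0.14 for Calr, and from RT to TN in Txnip-/- mice of −0.44, 0.03, 0.16, 0.22 and 0.20 in the same order. Of these 10 values, only the fall of Hspa5 from RT to TN in Txnip-/- mice was called.

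**Figure D4:**
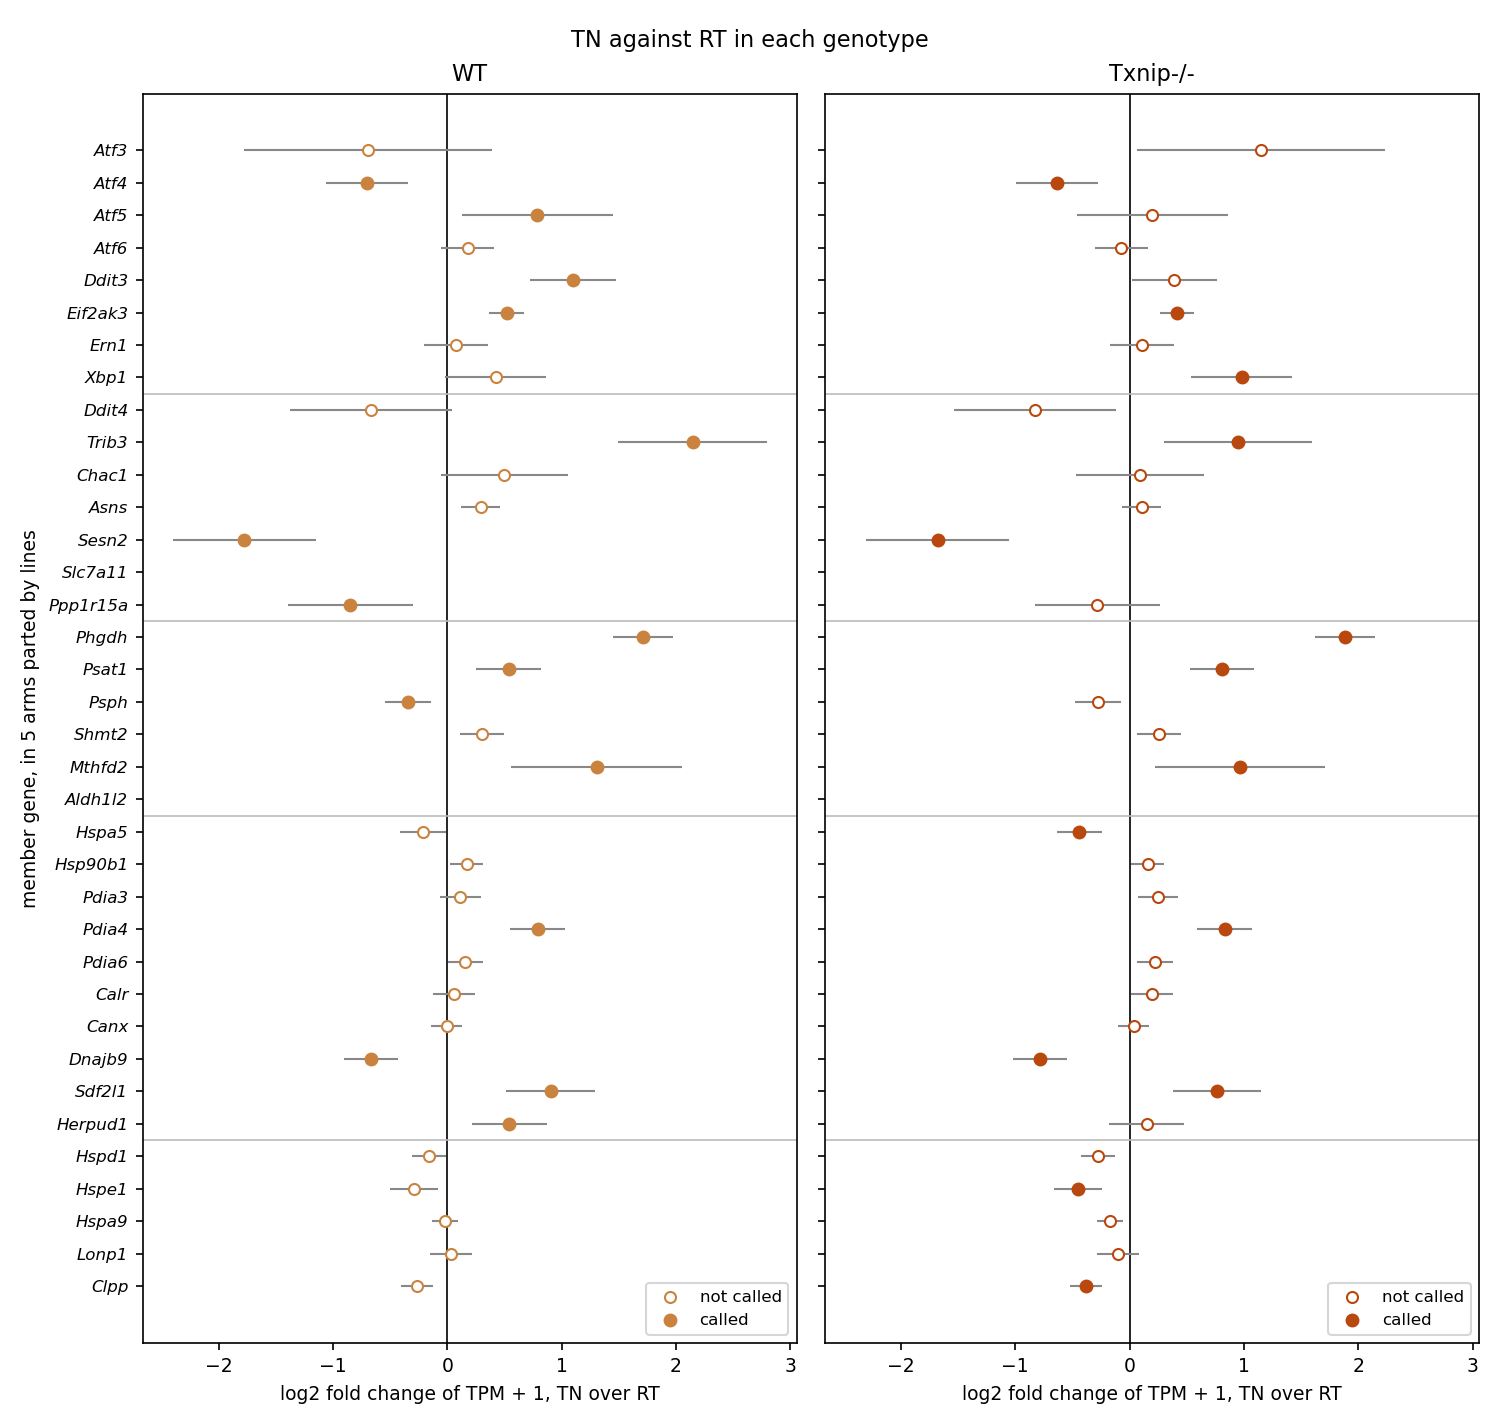
Points are the log2 fold changes of the members from RT to TN in WT (left) and Txnip-/- (right) libraries, 3 against 3 in a fit of all 12, with 95% intervals as bars; filled points were called and Slc7a11 and Aldh1l2 were not tested. Trib3 (2.15) and Phgdh (1.71) lie farthest right in WT, Phgdh (1.88) in Txnip-/-, and Sesn2 (−1.78 and −1.68) farthest left in both.

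The mitochondrial chaperones and proteases were the most abundant arm, with a sum over its 5 genes of 1514 to 1581 TPM in RT WT, 1466 to 1568 TPM in RT Txnip-/-, 1426 to 1446 TPM in TN WT and 1235 to 1302 TPM in TN Txnip-/- mice. Between genotypes limma called 0 of the 5 at either temperature, where 1.49% of all genes were called at RT and 8.66% at TN. An unadjusted p under 0.05 was reached by 0 at RT and 2 at TN, and by 16.0% and 25.6% of all genes. At TN all 5 had a log2 fold change below 0 in Txnip-/- mice, with a median of −0.13, where 48.1% of all genes were below 0. Hspa9, the mitochondrial Hsp70 and the most abundant member, was at 672.1, 654.4 and 696.3 TPM in RT WT, at 633.9, 662.8 and 635.1 TPM in RT Txnip-/-, at 657.1, 680.3 and 658.03 TPM in TN WT and at 588.04, 544.5 and 583.01 TPM in TN Txnip-/-. The TN Txnip-/- libraries lay below all others. The log2 fold change between genotypes at TN was −0.22 (SE 0.07, limma adjusted p = 0.0852). Clpp, the proteolytic subunit of a matrix protease, was at 117.2, 120.3 and 120.95 TPM in RT WT, at 103.7, 117.2 and 112.7 TPM in RT Txnip-/-, at 100.97, 92.7 and 105.1 TPM in TN WT and at 81.4, 89.2 and 85.3 TPM in TN Txnip-/-. Its libraries at TN were below those of the same genotype at RT, and the TN Txnip-/- below the TN WT libraries. Between genotypes the value was −0.22 (SE 0.07, limma adjusted p = 0.101) at TN and −0.10 (SE 0.06, limma adjusted p = 0.451) at RT. From RT to TN it was −0.26 (SE 0.06, limma adjusted p = 0.0059) in WT, short of the fold threshold. In Txnip-/- mice it was −0.38 (SE 0.06, limma adjusted p = 0.000579) and was called. The interaction of Clpp was −0.12 (SE 0.09, limma adjusted p = 0.625).

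Hspe1, the co-chaperonin that caps the Hspd1 chaperonin, was at 256.4, 284.4 and 263.02 TPM in RT WT, at 265.3, 299.02 and 277.8 TPM in RT Txnip-/-, at 206.9, 205.9 and 244.3 TPM in TN WT and at 210.8, 229.1 and 178.8 TPM in TN Txnip-/-. Every TN library was below every RT library of its genotype. The fall in Txnip-/- mice was −0.45 (SE 0.10, limma adjusted p = 0.00244), while in WT mice the value was −0.29 (SE 0.10, limma adjusted p = 0.0247), not called. The interaction was −0.16 (SE 0.14, limma adjusted p = 0.66). Hspd1 ranged between 276.9 and 369.4 TPM and Lonp1, the other matrix protease, between 110.6 and 140.99 TPM. Neither was called in the main fit of any comparison, while Hspd1 was called lower at TN in both genotypes with upper-quartile normalization. Hspd1 and Hspe1 are neighbours on opposite strands that share exon bases, and pseudogenes are annotated for both, so their reads may be mixed. The sum over 10 brown adipocyte markers was 10477 to 11019 TPM in RT WT and 8127 to 10059 TPM in RT Txnip-/- mice. At TN it was 6354 to 7174 TPM in WT and 4778 to 5236 TPM in Txnip-/- mice. The genotypes did not overlap in this sum at RT, where they did in the sum of the arm. Both sums were lowest in TN Txnip-/- mice. Of the 10 markers, 4 were called lower in TN Txnip-/- than in TN WT mice. Their part in the values of the arm was not tested.

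Other genes of the same pathways, from lists that do not hold the members, were read in the same fits. Among 29 further ATF4 targets, 22 were tested between genotypes at TN, of which 1 was called higher and 2 lower. Of all genes, 6.49% were called higher there and 2.17% lower. Cth, which makes cysteine, was 3.35, 3.92 and 5.96 TPM in TN WT and 1.27, 1.61 and 1.60 TPM in TN Txnip-/- mice, with no overlap. Its log2 fold change was −1.09 (SE 0.17, limma adjusted p = 0.0108), that of Vldlr, a lipoprotein receptor, was −0.41 (SE 0.09, limma adjusted p = 0.0269), and that of Pck2, the mitochondrial phosphoenolpyruvate carboxykinase, was 0.51 (SE 0.11, limma adjusted p = 0.0308). At RT 0 of 18 tested were called by limma, with 4 at an unadjusted p under 0.05, against 1.49% and 16.0% of all genes. With temperature, 9 of 21 rose and 3 fell in WT and 6 rose and 4 fell in Txnip-/- mice, where 31.4% of all genes rose and 6.39% fell in WT and 30.9% rose and 8.27% fell in Txnip-/- mice. Pck2 (1.43 and 1.49) rose in both genotypes, and Cebpb, which encodes a partner of ATF4, fell (−2.05 and −1.82).

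The 12 cytosolic aminoacyl-tRNA synthetases, also known ATF4 targets, were called in 0 cases between genotypes by limma at either temperature. Of all genes 1.49% were called at RT and 8.66% at TN. An unadjusted p under 0.05 was reached by 0 of the 12 at RT and 2 at TN, and by 16.0% and 25.6% of all genes. With temperature, Cars (0.35), Wars (0.35) and Lars (0.33) rose in WT mice and Gars (−0.32) fell in Txnip-/- mice. Of 15 genes for eIF2α kinases, eIF2 itself and its phosphatase, limma called 0 between genotypes. At an unadjusted p under 0.05 were 2 at RT and 0 at TN, against the same 16.0% and 25.6%. Ppp1r15b, the constitutive counterpart of Ppp1r15a, fell from RT to TN in WT (−1.08, SE 0.14, limma adjusted p = 0.000214) and in Txnip-/- mice (−0.54, SE 0.14, limma adjusted p = 0.00795). Eif2ak2, which encodes the kinase PKR, rose in both (0.42 and 0.37), and Eif2ak1, the haem-regulated kinase gene, fell in Txnip-/- mice (−0.44).

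Of 37 further ER folding and degradation genes, limma called 0 of 36 tested at RT and 0 of 37 at TN between genotypes, with 0 and 11 at an unadjusted p under 0.05, which 16.0% and 25.6% of all genes reached. Between RT and TN, 5 of 37 rose and 1 fell in WT, and 11 rose and 2 fell in Txnip-/- mice, against 37.8% and 39.2% of all genes called in either direction. Syvn1, a ubiquitin ligase of ER degradation, fell in both genotypes (−0.59 and −0.49), Crebrf (0.61) rose in WT mice and P4hb (0.60), a disulphide isomerase gene, in Txnip-/- mice. Of 18 further mitochondrial folding and protease genes, 2 fell in Txnip-/- against WT mice at TN, where 2.17% of all genes did, Tomm40 (−0.40, SE 0.09, limma adjusted p = 0.034), a pore of the outer membrane, and Grpel1 (−0.34, SE 0.07, limma adjusted p = 0.0215), the nucleotide exchange factor of Hspa9. From RT to TN, 1 fell in WT mice, Grpel1 (−0.45), and 7 fell in Txnip-/- mice, with Grpel1 (−0.78), Tomm40 (−0.56) and Phb2 (−0.38) the largest, where 6.39% and 8.27% of all genes fell.

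The cytosolic heat shock genes, which HSF1 drives and which are not part of the ER or ATF4 programmes, were read beside the members. In WT mice 11 of 15 fell from RT to TN and 1 rose, with a median log2 fold change of −0.98, where 6.39% of all genes fell. The sum over the 15 genes was 1413, 2479 and 2805 TPM in RT WT and 1398 to 1560 TPM in TN WT, so that RT WT replicate 1 lay within the TN range. Hspa1b, an inducible Hsp70, was at 7.36, 67.1 and 55.97 TPM in RT WT, at 2.21, 2.71 and 5.75 TPM in RT Txnip-/-, at 1.02, 1.43 and 1.19 TPM in TN WT and at 0.766, 1.74 and 1.82 TPM in TN Txnip-/-. RT WT replicates 2 and 3 were above all other libraries. Between RT and TN its log2 fold change was −3.85 (SE 0.62, limma adjusted p = 0.000602) in WT and −0.85 (SE 0.62, limma adjusted p = 0.267) in Txnip-/- mice. In Txnip-/- mice 3 of 15 fell, where 8.27% of all genes did, among them Hsph1 (−1.44) and Dnaja1 (−0.83), and Cryab (2.002) rose. The interaction called 0 of the 15 with limma, with 4 at an unadjusted p under 0.05, which 12.6% of all genes reached. The temperature effect is thus not shown to differ between genotypes. Between genotypes limma called 0 of 15 at RT, with 5 at an unadjusted p under 0.05, against 1.49% and 16.0% of all genes. At TN it called 1 of 14, Cryab (1.253, SE 0.17, limma adjusted p = 0.00712), against 8.66% of all genes.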

How the data were processed

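RNA-seq of interscapular BAT was read from the tables deposited for 12 libraries, 3 in each of 4 groups set by the sample labels. The authors selected poly-A RNA, used STAR 2.7.5a to align their single-end reads to mm10 and HOMER 4.11.1 to count those on exons, and the TPM values the authors deposited for 25124 genes come from these counts. The authors also deposited log2-scale values for the 6 libraries of each temperature, made by a transform that the headers do not name and on another transcript for 5 members (Atf4, Ddit3, Xbp1, Hspa5 and Canx), which served as an alternative. Columns with the authors' own fold changes, p-values and adjusted p-values were not used. Gene counts were not used here, so a count test was not run. The counting error of single values is unknown, and precision was set by the spread between libraries within groups. For temperatures and the interaction this spread was pooled over all 4 groups. A temperature value therefore has the same SE in both genotypes.

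Tests were run on log2(TPM + 1) with limma 3.58.1 in R 4.3.3 for every gene whose mean was at least 1 TPM over the libraries of a comparison, using empirical Bayes moderation with a trend and Benjamini-Hochberg adjustment over all genes tested. Genotypes were compared on the 6 libraries of each temperature, and temperatures and the interaction on all 12 with 4 group means, so that comparisons within a genotype and within a temperature share libraries. Thresholds on fold change and adjusted p followed the study, and the interaction was called on adjusted p alone. The code was tested on simulated data. The members and lists were chosen with earlier results of these data known, and no test was made over a list. Per-library values are given for members called in any comparison or at either end of their arm between genotypes, and of other lists up to 3 called genes of largest change per comparison are named; other values given in full were chosen after they were seen. No strand setting is named for the counting, so reads from opposite-strand partners cannot be told apart, and 13 members share exon bases with such a gene in GENCODE. Promoters were taken from RefSeq, GRCm38.p6, which has the coordinates of mm10. The alternatives tried were a pseudocount of 0.1, no filter, upper-quartile normalization, median centring, the replicate number as a block, 1 fit of all libraries, the log2-scale values, no fold threshold and each library left out in turn, and, after the data were seen, both RT libraries of replicate 1 left out. Plots were made in Python 3.11.15 with matplotlib 3.10.9.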

Additional observations from a re-analysis of the deposited data

How the results depend on the processing

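The counts of members called moved between genotypes, and with temperature their split by direction moved. At RT, where 0 were called, median centring called 1 (Asns) and 1 fit of all 12 libraries called 2 (Asns and Phgdh), and leaving out 1 library gave 0 to 1, with Trib3 called without RT Txnip-/- replicate 2. At TN, where 3 were called, the count was 1 without the filter on low values, which adjusts over more genes, and 1 to 5 with 1 library left out. It was 1 (Asns) without TN Txnip-/- replicate 1 or 2, and 5 without TN WT replicate 1, when Atf5, Mthfd2 and Trib3 were called and Phgdh was not. With the authors' log2-scale values the TN count was again 3, with Ddit3 in place of Phgdh. With temperature, the counts of 15 in WT and 14 in Txnip-/- mice stayed within 1.5 times the main count under every alternative, but with upper-quartile normalization the split turned from 10 higher and 5 lower at TN to 8 and 10 in WT mice, and from 8 and 6 to 6 and 10 in Txnip-/- mice. The interaction called 0 members throughout. With both RT replicate 1 libraries left out, 0 members were called at RT, and 17 and 15 with temperature in WT and Txnip-/- mice.

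Of 561 refits of the member calls, 514 stayed called, 47 lost the call and 0 changed sign. With the replicate block, 0 members were called at RT and 4 at TN, Xbp1 being added, 16 with temperature in WT and 15 in Txnip-/- mice. The replicate numbers were not taken as pairs: deviations of same-numbered WT and Txnip-/- libraries correlated across genes at 0.297, −0.022 and 0.21 at RT and at 0.042, 0.023 and −0.036 at TN. With 3 libraries per group, members with wide spread, such as Atf3 at RT or Mthfd2 at TN, had wide intervals (−2.27 to 0.50 and −1.26 to 0.61 between genotypes on the log2 scale), and a member that was not called is not shown to be unchanged.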
